A study of Homo sapiens with 9 samples.

Results

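The genes described here encode the proteasome, its activators, its inhibitor and its assembly chaperones. They were chosen by name: probe sets of the array whose platform annotation gives exactly 1 gene symbol, where that symbol is PSM, then a letter from A to G, then digits. The rule found 48 genes with 844 probe sets, among 354600 probe sets with 1 symbol. A gene level could be computed for 46 of the 48, among 16748 genes in all. The rule used no measured value. All arrays came from Flip-In-293 cells, which descend from HEK293, a human embryonic kidney line, and carry 1 integration site for transgenes. Every culture, controls included, had been infected with lentivirus expressing a short hairpin RNA, and RNA was taken after 10 days. The groups were a hairpin labelled as directed against CPSF3, the nuclease that cuts nascent transcripts before polyadenylation, a hairpin against RBFOX2, a regulator of alternative splicing, and a non-silencing hairpin as control. Each group held 3 Human Exon 1.0 ST arrays. The values were log2 probe set signals processed by robust multi-array averaging (RMA).

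The proteasome is the protease that degrades most ubiquitin-tagged proteins in the cytosol and nucleus. Its 20S core is a barrel of stacked rings, with structural alpha subunits outside and beta subunits inside, some of which carry the cutting sites. The 19S cap sits on an end of the barrel. Its ring of ATPases unfolds the substrate and opens the gate, and its other subunits bind and remove ubiquitin. Dedicated chaperones help to build core and cap and then leave. Interferon-inducible beta subunits can replace their constitutive relatives and change the peptides made for antigen presentation. When proteasome activity drops, the transcription factor NFE2L1 raises many subunit genes together through antioxidant response elements in their promoters.

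Data quality bears on every comparison below. The median over all probe sets lay between 6.965 and 6.998 (log2) on the 9 arrays. Replicates are biological by their sample titles and technical by the series description, so the spread that the p-values measure is that between these arrays and may be technical. The CPSF3 transcript was at 9.60, 9.27 and 9.27 on the arrays labelled CPSF3 knockdown and at 9.33, 9.29 and 9.80 on the control arrays, a difference of -0.09 ± 0.16 (SE, n = 3 each; adjusted p = 0.752). Since the targeted transcript was not lower beyond the spread, these are called arrays labelled CPSF3 knockdown throughout, and each direction given for them depends on the label. RBFOX2 was at 8.95, 8.82 and 9.05 on the RBFOX2 knockdown arrays and at 9.66, 9.54 and 9.38 on the control arrays, a difference of -0.58 ± 0.12 (adjusted p = 0.0617). RBFOX2 was called lower without control replicate 3 (adjusted p = 0.00424), with the upper-quartile filter (0.0247), the replicate block (0.0451), array weights (0.00242) or the mean as gene level (0.0255). HEK293 line markers, among them neurofilament and keratin genes, had a summed signal of 12.49 to 12.61 on the arrays labelled CPSF3 knockdown, 12.73 to 12.87 on the RBFOX2 knockdown arrays and 13.10 to 13.39 (log2) on the control arrays, and 4 of 8 (ENO2, VIM, NEFL and KRT8) were called lower in the arrays labelled CPSF3 knockdown, against 4.38% of all genes. In the RBFOX2 knockdown arrays 7 of the 8 were below control, and ENO2 was called (-0.92 ± 0.14, adjusted p = 0.0255), against 0.173% of all genes called in either direction. None of the 4 blood, 7 fibroblast and 5 endothelial markers with a level differed in either comparison with control, and their summed signals overlapped between the arrays labelled CPSF3 knockdown and control. On the RBFOX2 knockdown arrays the summed endothelial signal, 10.595 to 10.748, lay barely above the 10.447 to 10.587 of the control arrays. RMA signals have no true zero, so no marker is listed at 0. All cultures were of 1 line. In bulk RNA of this kind, fewer cells expressing a marker and less of its RNA per cell cannot be told apart. The part of the lower HEK293 markers in the results below was not tested.

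Adjusted p-values below come from limma with Benjamini-Hochberg adjustment over all 16748 genes, in 1 model of the 3 groups, and a gene is called different where its adjusted p is under 0.05. A gene level is the median over its probe sets that passed the filter on dim signal, which 724 of the 844 proteasome probe sets did, from 4 to 54 per gene with a level. Levels are given per array in the order of replicates 1, 2 and 3. Because each probe set binds with its own strength, levels are compared only within a gene.

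Of the 46 proteasome genes, 7 were called different between the arrays labelled CPSF3 knockdown and control, which is 15.2%, against 14.4% of all genes. The called genes were 2 ATPases of the 19S cap (PSMC2 and PSMC4), 3 non-ATPase subunits of the cap (PSMD1, PSMD11 and PSMD12), the activator PSME3 and the interferon-inducible core subunit PSMB9. The first 6 were higher, against a background of 10.0% of all genes called higher, and PSMB9 was lower, against 4.38% called lower. In this fit the share of called proteasome genes was thus near that of all genes. No constitutive subunit of the 20S core and no assembly chaperone was called in this fit, and whether the classes differ from each other was not tested. Among 18 other settings, PSMB6 was called under 5, PSMA4 under 4, PSMA3 and PSMA6 under 3 each, PSMB2 under 2, PSMA2 and PSMB4 under 1 each, and the chaperone PSMG1 under 1. Without control replicate 3, 11 proteasome genes were called (23.9%, against 20.5% of all genes), and without replicate 1 of the arrays labelled CPSF3 knockdown 4 were called (8.70%, against 5.76%). The shares lay further apart with the mean as gene level (32.6%, against 21.1%), array weights (39.1%, against 28.8%) and the upper-quartile filter (25.6%, against 17.6%). They were close with quantile normalisation (15.2%, against 14.5%). Whether these shares differ was not tested.

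The stretches before the transcription start of 5 of the called genes are shown because the regulators of proteasome genes bind there: the 4 genes with the largest rises and the gene that fell. Each line gives the 250 bases before the start in RefSeq, build GRCh38.p14, 5′ to 3′ on the strand of the gene. PSMD1 lies at chr2:231056617-231056866 (plus strand), PSMD12 at chr17:67366578-67366827 (minus strand), PSME3 at chr17:42833147-42833396 (plus strand), PSMC2 at chr7:103347393-103347642 (plus strand) and PSMB9 at chr6:32853942-32854191 (plus strand). Capitals mark matches, on either strand, to TGACNNNGC (the core of the antioxidant response element), CCAAT (the NF-Y box), CCGGAAG (an ETS factor core) or GAAANNGAA (a pair of interferon regulatory factor half-sites).
PSMD1: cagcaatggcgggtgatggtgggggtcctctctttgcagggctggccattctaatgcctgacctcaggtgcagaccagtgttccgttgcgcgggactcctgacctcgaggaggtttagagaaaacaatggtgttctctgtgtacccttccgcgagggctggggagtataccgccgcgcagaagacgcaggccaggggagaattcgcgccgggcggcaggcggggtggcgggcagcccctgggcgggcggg
PSMD12: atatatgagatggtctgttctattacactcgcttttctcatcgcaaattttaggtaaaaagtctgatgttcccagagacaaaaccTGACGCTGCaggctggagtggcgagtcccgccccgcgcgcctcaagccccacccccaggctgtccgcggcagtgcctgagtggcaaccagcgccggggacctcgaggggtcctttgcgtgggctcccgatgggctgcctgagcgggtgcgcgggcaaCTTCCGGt
PSME3: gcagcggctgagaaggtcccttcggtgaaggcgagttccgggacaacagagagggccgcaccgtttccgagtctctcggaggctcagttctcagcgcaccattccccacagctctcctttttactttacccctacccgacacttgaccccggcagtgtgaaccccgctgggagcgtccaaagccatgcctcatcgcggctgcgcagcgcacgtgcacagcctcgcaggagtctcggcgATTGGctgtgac
PSMC2: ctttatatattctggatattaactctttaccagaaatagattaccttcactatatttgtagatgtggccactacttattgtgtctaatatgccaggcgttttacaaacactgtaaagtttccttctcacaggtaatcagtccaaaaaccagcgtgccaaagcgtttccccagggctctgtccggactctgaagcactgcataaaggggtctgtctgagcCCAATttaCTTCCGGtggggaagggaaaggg
PSMB9: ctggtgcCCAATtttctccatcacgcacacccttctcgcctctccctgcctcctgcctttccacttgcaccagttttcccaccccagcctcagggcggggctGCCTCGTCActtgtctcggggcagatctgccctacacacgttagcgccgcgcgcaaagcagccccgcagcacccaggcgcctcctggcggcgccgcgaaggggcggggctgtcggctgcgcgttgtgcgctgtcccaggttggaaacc

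None of the marked matches overlap each other. PSMD12 held TGACNNNGC and CCGGAAG, PSMB9 held TGACNNNGC and CCAAT, PSMC2 held CCAAT and CCGGAAG, and PSME3 held CCAAT. PSMD1 held none of these letters in this window, as did PSMC4 and PSMD11, which are not shown. GAAANNGAA was in none of the 7 called genes. Promoters were looked up for the 46 genes with a level and found for 40 of them, with 49 start sites. TGACNNNGC was in 26.5% of the 49 windows and in 10.9% of the 35116 windows of all genes. CCGGAAG was in 20.4% of the proteasome windows and 8.52% of all, CCAAT in 36.7% and 32.0%, and GAAANNGAA in 10.2% and 6.88%. A match is a description of the letters and not evidence of binding.

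The subunits of the 19S cap included 5 of the 6 rises. PSMD1, the large scaffold subunit that anchors ubiquitin receptors, had levels of 10.54, 10.21 and 10.35 on the arrays labelled CPSF3 knockdown, 9.94, 9.55 and 10.07 under RBFOX2 knockdown, and 9.50, 9.00 and 9.69 on the control arrays. All arrays labelled CPSF3 knockdown lay above all of the other 6. The difference from control was 0.97 ± 0.18 (1.96-fold, adjusted p = 0.00476).

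PSMD12, a lid subunit that helps hold the lid together, had levels of 9.75, 9.86 and 10.00 on the arrays labelled CPSF3 knockdown, 8.86, 9.10 and 9.89 under RBFOX2 knockdown, and 8.98, 8.74 and 9.11 on the control arrays. The arrays labelled CPSF3 knockdown were clear of control, while RBFOX2 knockdown replicate 3 lay among them, far from the other two of its group. PSMD12 differed from control by 0.93 ± 0.21 (1.90-fold, adjusted p = 0.0105). PSMD11, another lid subunit, had levels of 10.50, 10.30 and 10.45 on the arrays labelled CPSF3 knockdown, 9.97, 9.77 and 10.29 under RBFOX2 knockdown, and 9.92, 9.80 and 9.75 on the control arrays. Its groups did not overlap between the arrays labelled CPSF3 knockdown and control, and the control arrays were close together. Its difference was 0.60 ± 0.14 (1.51-fold, adjusted p = 0.0116), and 0.55 (adjusted p = 0.0532) without replicate 1 of the arrays labelled CPSF3 knockdown.

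Among the ATPases that unfold substrates, PSMC2 had levels of 10.74, 10.63 and 10.43 on the arrays labelled CPSF3 knockdown, 10.12, 9.97 and 10.35 under RBFOX2 knockdown, and 9.88, 9.67 and 10.07 on the control arrays. The group means lay in that order, and the arrays labelled CPSF3 knockdown were above all others. PSMC2 differed from control by 0.72 ± 0.14 (1.65-fold, adjusted p = 0.00584). PSMC4 had levels of 11.96, 11.86 and 11.73 on the arrays labelled CPSF3 knockdown, 11.85, 11.40 and 11.67 under RBFOX2 knockdown, and 11.35, 11.15 and 11.57 on the control arrays. Its arrays labelled CPSF3 knockdown lay above the control arrays but overlapped the RBFOX2 knockdown arrays. The difference of PSMC4 was 0.50 ± 0.14 (1.41-fold, adjusted p = 0.0333), and it was not called without control replicate 1 (adjusted p = 0.0939), control replicate 2 (0.132), or replicate 1 (0.124) or 2 (0.0884) of the arrays labelled CPSF3 knockdown, or when dim probe sets were kept (0.0543). RefSeq lists 2 pseudogenes named after PSMC2 and 1 after PSMD12, whose transcripts, if made, could bind the same probes, and none after the other 5 called genes.

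PSME3 encodes PA28-gamma, a nuclear activator that opens the core without ATP. Its levels were 10.95, 11.21 and 11.19 on the arrays labelled CPSF3 knockdown, 10.71, 10.58 and 11.09 under RBFOX2 knockdown, and 10.05, 9.99 and 10.73 on the control arrays. Control replicate 3 was well above the other control arrays and still below every array labelled CPSF3 knockdown. PSME3 differed from control by 0.86 ± 0.19 (1.81-fold, adjusted p = 0.00952).

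PSMB9, also known as LMP2, is the inducible subunit that takes the place of PSMB6. It had levels of 7.36, 7.98 and 7.74 on the arrays labelled CPSF3 knockdown, 8.10, 8.11 and 8.12 under RBFOX2 knockdown, and 8.46, 8.10 and 8.50 on the control arrays. Each array labelled CPSF3 knockdown lay below all arrays of the other groups, and the RBFOX2 knockdown arrays were nearly equal. PSMB9 differed from control by -0.66 ± 0.15 (1.58-fold lower, adjusted p = 0.0133). It was not called without control replicate 1 (-0.61, adjusted p = 0.0583), without replicate 1 of the arrays labelled CPSF3 knockdown (-0.49, adjusted p = 0.0628), or when dim probe sets were kept (-0.21, adjusted p = 0.341). Of the 13 probe sets of PSMB9, 8 passed the filter on dim signal, and its lowest level, 7.36, was little above the cut of 6.97. Whether its signal was above background was not tested.

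**Figure D1:**
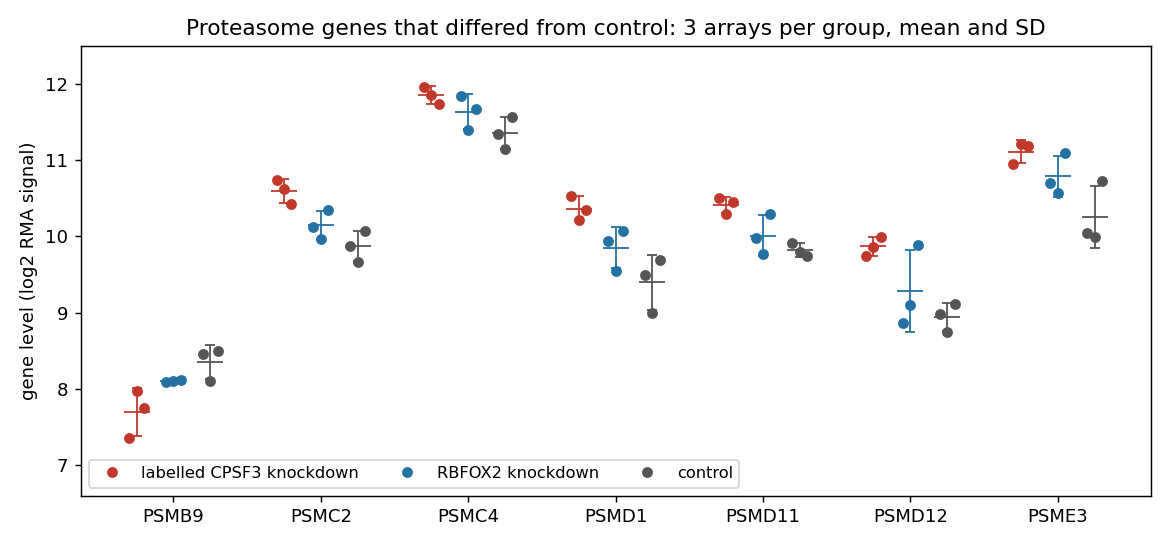
Gene level (log2 RMA signal, vertical axis) of the 7 called proteasome genes on each array, with the arrays labelled CPSF3 knockdown in red, the RBFOX2 knockdown arrays in blue and the control arrays in grey; bars give the mean and SD of 3 arrays. For all 7 genes the arrays labelled CPSF3 knockdown do not overlap the control arrays, and they lie below them only for PSMB9.

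Over all classes, the gene levels of the arrays labelled CPSF3 knockdown were above control in 32 of 46 genes, against 51.6% of all genes with a difference above 0. The median difference was 0.18 over the proteasome genes and 0.01 over all genes. On 16 genes every array labelled CPSF3 knockdown was above every control array, which held for 17.9% of all genes, and on 2 genes (PSMB8 and PSMB9) every one was below, which held for 13.2%. At an unadjusted p under 0.05 there were 19 proteasome genes, against 28.2% of all genes. In this fit the proteasome genes thus differed from all genes in the share above 0 more than in the share called, and no test of this was made.

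In the 20S core, 17 genes had a level and their median difference was 0.21, with 12 above 0. The median was 0.028 when dim probe sets were kept and 0.12 with the mean as gene level. The alpha ring gates the barrel, and 6 of its 7 measured members were above 0, with a median of 0.32 and none called. PSMA4 had the highest difference of the ring, 0.38 ± 0.16 (adjusted p = 0.123), with levels of 11.25, 11.49 and 11.63 on the arrays labelled CPSF3 knockdown against 10.90, 11.02 and 11.30 on the control arrays. Its groups overlapped. PSMA4 was called with the replicate number as a block (0.38, adjusted p = 0.0339), without control replicate 3 (0.50, adjusted p = 0.0424), with array weights (0.53, adjusted p = 0.00349) and with the mean as gene level (0.41, adjusted p = 0.0178). PSMA7 had the lowest, -0.06 ± 0.13 (adjusted p = 0.806), with levels of 9.87, 9.71 and 9.49 against 9.77, 9.65 and 9.83 in control.

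The constitutive beta ring holds the catalytic subunits PSMB5, PSMB6 and PSMB7. Of its 7 genes 5 were above 0, with a median of 0.19 and none called. PSMB6, which carries the caspase-like site, had the highest difference, 0.36 ± 0.12 (adjusted p = 0.0595), with an adjusted p from 0.00931 to 0.0492 under the 5 settings that called it. Its levels were 12.41, 12.38 and 12.11 on the arrays labelled CPSF3 knockdown and 11.91, 11.89 and 12.00 on the control arrays, which did not overlap. PSMB4, a structural subunit, had the lowest, -0.21 ± 0.15 (adjusted p = 0.389), with levels of 11.28, 10.98 and 10.84 against 11.48, 11.23 and 11.03 in control. Of the inducible and thymic subunits, 3 had a level and their median difference was -0.30. For PSMB8, 4 of 10 probe sets passed the filter on dim signal. Its levels were 7.68, 7.65 and 7.93 on the arrays labelled CPSF3 knockdown against 8.14, 8.01 and 8.00 on the control arrays, without overlap. PSMB8 missed the threshold at -0.30 ± 0.16 (adjusted p = 0.237). The highest of the 3 inducible and thymic subunits with a level was PSMB10, at 0.09 ± 0.16 (adjusted p = 0.774). It had overlapping levels of 8.13, 8.24 and 8.53 against 8.16, 8.39 and 8.09 in control.

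PSMA8, the alpha subunit of the testis proteasome, and PSMB11, the beta subunit of the thymus, had no level after the filter on dim probe sets. Of 12 PSMA8 probe sets 1 passed, and the median over all 12 was 4.25, 4.43 and 4.19 on the arrays labelled CPSF3 knockdown, 4.48, 4.59 and 4.55 under RBFOX2 knockdown, and 4.25, 4.57 and 4.41 on the control arrays. Of 6 PSMB11 probe sets 2 passed, and the median over all 6 was 6.46, 6.31 and 6.18 on the arrays labelled CPSF3 knockdown, 6.62, 5.85 and 6.41 under RBFOX2 knockdown, and 6.53, 6.56 and 6.78 on the control arrays. Both lay below 6.97, the median of all probe sets, on every array.

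In the 19S cap all 17 genes had a level, 14 were above 0 and the median difference was 0.27. Of the 6 ATPases 5 were above 0, with a median of 0.31, and the lowest was PSMC6 at -0.02 ± 0.22 (adjusted p = 0.963). PSMC6 had levels of 9.60, 9.35 and 9.50 on the arrays labelled CPSF3 knockdown and 9.79, 9.62 and 9.12 on the control arrays, so that the control arrays spread wider than the difference. Of the 11 non-ATPase subunits 9 were above 0, with a median of 0.18. The lowest was PSMD4, a ubiquitin receptor, at -0.08 ± 0.16 (adjusted p = 0.799), with levels of 9.24, 9.16 and 9.20 against 9.26, 9.14 and 9.45 in control.

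The 7 assembly chaperones had a median difference of -0.02, with 2 above 0 and none called. Among the PSMG genes, which build the core, PSMG1 was highest at 0.21 ± 0.13 (adjusted p = 0.313; 0.35 and 0.0264 with the mean as gene level) and PSMG4 lowest at -0.12 ± 0.12 (adjusted p = 0.588). PSMG1 had levels of 10.81, 10.66 and 10.40 on the arrays labelled CPSF3 knockdown against 10.32, 10.42 and 10.51 in control, and PSMG4 had 8.28, 8.22 and 8.01 against 8.18, 8.26 and 8.42. Among PSMD5, PSMD9 and PSMD10, which guide assembly of the ATPase ring, differences ran from -0.10 ± 0.13 for PSMD5 (adjusted p = 0.691) to -0.01 ± 0.11 for PSMD9 (adjusted p = 0.970). The chaperone groups overlapped for every gene.

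The activators and the inhibitor had a median difference of 0.35, with 4 of 5 above 0. Below PSME3 in this class were PSME4, PSMF1 and PSME2, and the lowest was PSME1, the interferon-inducible PA28-alpha, at -0.16 ± 0.11 (adjusted p = 0.387). PSME1 had levels of 9.15, 9.08 and 9.20 on the arrays labelled CPSF3 knockdown and 9.32, 9.39 and 9.20 on the control arrays.

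**Figure D2:**
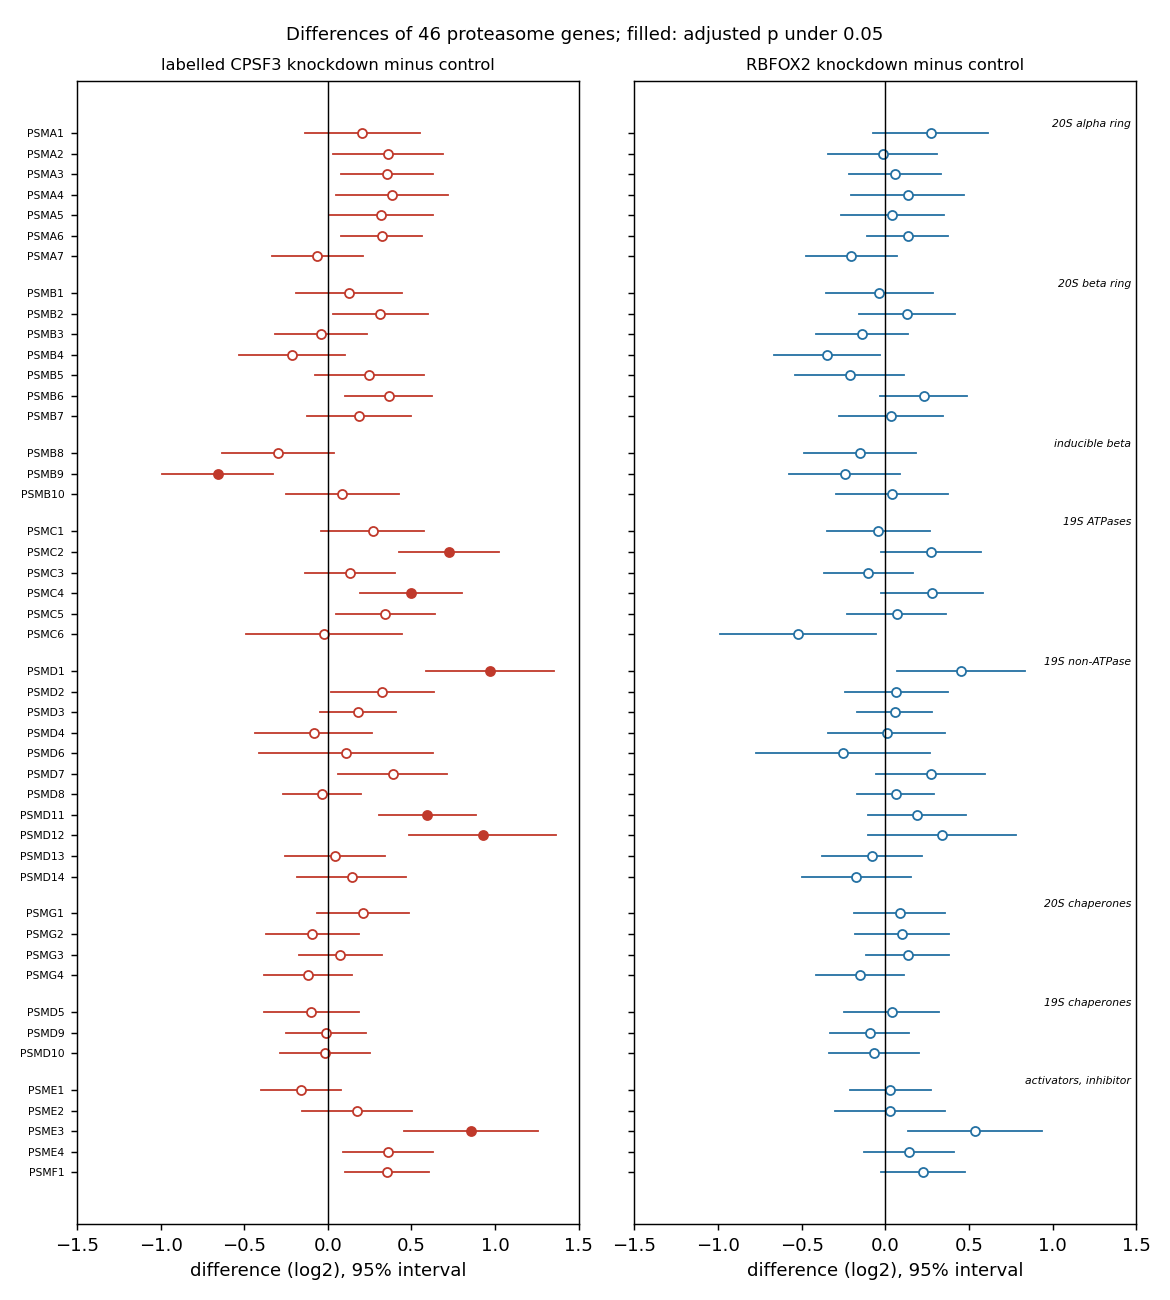
Difference in gene level (log2, horizontal axis) of the 46 proteasome genes, by class, for the arrays labelled CPSF3 knockdown minus control (left) and RBFOX2 knockdown minus control (right); lines are 95% intervals from the fit, not adjusted for multiple tests, and filled points have an adjusted p under 0.05. The filled points are PSMB9, PSMC2, PSMC4, PSMD1, PSMD11, PSMD12 and PSME3 on the left, and none on the right.

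The classes were also followed array by array, as the median deviation of each gene from its own mean over the 9 arrays. The 19S cap stood at 0.37, 0.08 and 0.12 on the arrays labelled CPSF3 knockdown, 0.03, -0.24 and 0.05 under RBFOX2 knockdown, and 0.00, -0.15 and -0.14 on the control arrays. Replicate 1 of the arrays labelled CPSF3 knockdown was far above the other two, and the control arrays were all below that group. The 20S core stood at 0.22, 0.14 and -0.02 on the arrays labelled CPSF3 knockdown, -0.03, -0.12 and 0.00 under RBFOX2 knockdown, and -0.10, -0.02 and -0.03 on the control arrays. The core of replicate 3 of the arrays labelled CPSF3 knockdown lay within the control range. The chaperones stood at 0.08, 0.00 and -0.09 on the arrays labelled CPSF3 knockdown, 0.11, -0.09 and 0.06 under RBFOX2 knockdown, and -0.02, 0.04 and -0.01 on the control arrays, without separation of the groups. Over all genes the same median stayed between -0.05 and 0.03.

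**Figure D3:**
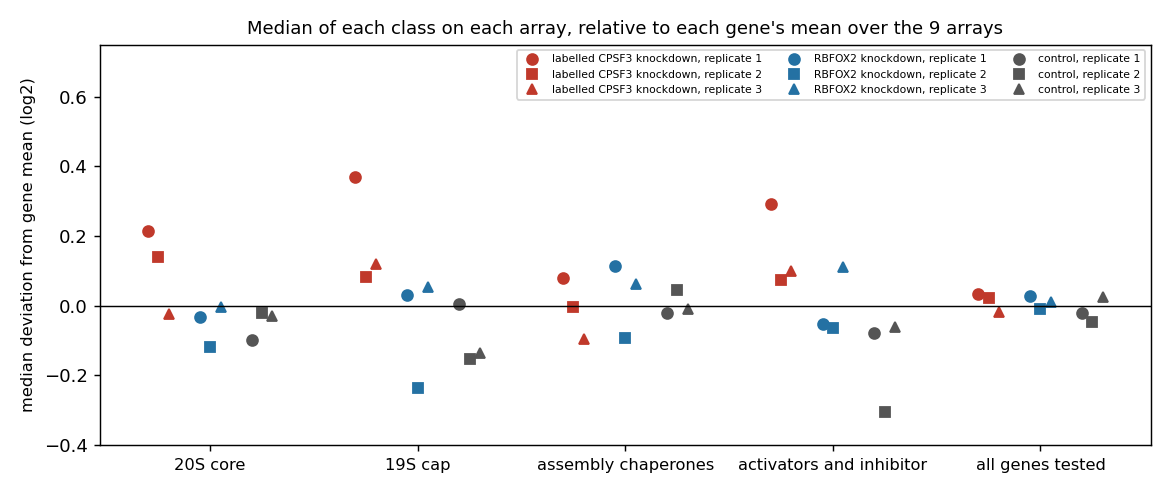
Median deviation from each gene's mean over the 9 arrays (log2, vertical axis) for the 20S core, the 19S cap, the assembly chaperones, the activators and inhibitor, and all genes tested; each marker is 1 array, with red for arrays labelled CPSF3 knockdown, blue for RBFOX2 knockdown and grey for control, and the marker shape gives the replicate number. The 3 red markers of the 19S cap lie above the 3 grey ones, and the groups mix among the chaperones.

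Single probe sets were fitted too. A gene level is the median of these probe sets, so their agreement in direction with it is largely built in and is no separate support. In some uncalled genes most probe sets lay on the other side of 0 from the gene level. One of them was PSMC6, at -0.02, with 16 of 27 probe sets higher. Tested over 692116 probe sets, 35 of the 724 proteasome probe sets were called different between the arrays labelled CPSF3 knockdown and control, 34 higher and 1 lower, which is 4.83% against 1.60% of all. At an unadjusted p under 0.05 there were 229 (31.6%, against 15.2% of all). Only 266506 of the 692116 probe sets had exactly 1 gene symbol, as every proteasome probe set does. The shares of all thus come from an unlike set, and no share over probe sets with 1 symbol was computed. The 35 calls fell in 10 genes, with 7 in PSME3, 6 in PSMC2, 5 each in PSMD1 and PSMD12, 4 each in PSMD11 and PSMF1, and 1 each in PSMA4, PSMB9, PSMD2 and PSMG1. No proteasome probe set was called without control replicate 1, without control replicate 2, or without any 1 of the arrays labelled CPSF3 knockdown, and 89 were called without control replicate 3. The shares of all probe sets called without these arrays are not given here. Among all genes, the share called by gene level (14.4% in the main fit) also fell, to between 5.76% and 9.94%. It was 20.5% without control replicate 3.

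By direction, all 28 probe sets of PSMD1, all 17 of PSMC2 and all 14 of PSMC4 were higher, as were 16 of 17 in PSMD12, 15 of 18 in PSMD11 and 20 of 24 in PSME3. In PSMB9, 7 of 8 were lower. The smallest p belonged to ps3873438 of PSMF1, which encodes the inhibitor PI31. It was at 9.21, 8.71 and 8.81 on the arrays labelled CPSF3 knockdown, 8.19, 8.16 and 8.66 under RBFOX2 knockdown, and 7.29, 6.65 and 7.80 on the control arrays, a difference of 1.67 ± 0.27 (adjusted p = 0.0211). All arrays of both targeted hairpins were above control, while the gene level of PSMF1 differed by 0.35 ± 0.12 (adjusted p = 0.0595). The next smallest p were those of ps3768109 of PSMD12 (1.98 ± 0.35), ps2531731 of PSMD1 (1.05 ± 0.18), ps3017226 of PSMC2 (0.92 ± 0.17) and ps3768119 of PSMD12 (1.18 ± 0.21), with adjusted p from 0.0261 to 0.0283. For ps3768109 the levels were 8.41, 8.86 and 8.42 on the arrays labelled CPSF3 knockdown, 7.82, 7.24 and 8.12 under RBFOX2 knockdown, and 5.90, 6.38 and 7.48 on the control arrays, which spread over more than any other group. A further 29 probe sets carried a proteasome symbol beside that of another gene and were not used.

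**Figure D4:**
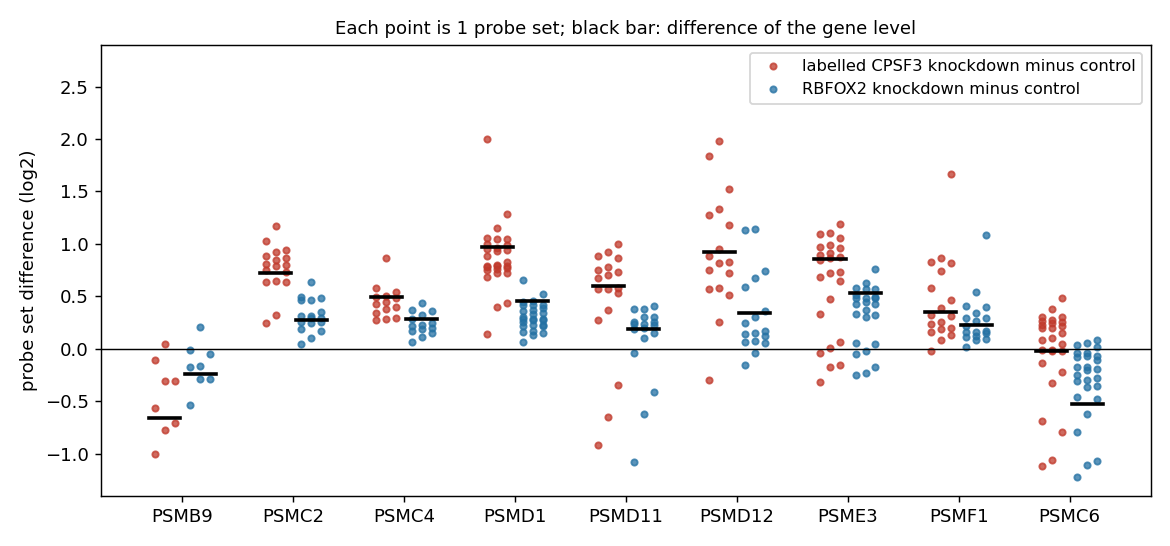
Difference of each probe set (log2, vertical axis) for the 7 called genes, PSMF1 and PSMC6, with red points for the arrays labelled CPSF3 knockdown minus control and blue points for RBFOX2 knockdown minus control; black bars give the difference of the gene level. The red points of PSMD1, PSMC2 and PSMC4 all lie above 0, and PSMF1 has 1 red point at 1.67, far above its bar.

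Exon signal, the probe set value minus the level of its gene on the same array, asks whether part of a transcript moved apart from the rest. It could be computed for 715 probe sets in 45 proteasome genes. None was called between the arrays labelled CPSF3 knockdown and control, against 0.0774% of all 257210 exon probe sets, and 96 had an unadjusted p under 0.05 (13.4%, against 12.7% of all). The smallest p was that of ps3535895 of PSMC6, whose exon signal differed by -1.10 ± 0.17 (adjusted p = 0.0535). Its signal before subtraction was 8.82, 8.23 and 8.16 on the arrays labelled CPSF3 knockdown, 7.83, 8.58 and 8.50 under RBFOX2 knockdown, and 9.95, 9.74 and 8.88 on the control arrays. Control replicate 3 lay near the arrays labelled CPSF3 knockdown, and without it this exon signal was called (-1.22, adjusted p = 0.0147), as were 26 proteasome exon signals in all. The share of all exon probe sets called without that array is not given here. Among all genes, the share with a called gene level went from 14.4% to 20.5% without it. In the RBFOX2 knockdown arrays the same exon signal differed from control by -0.70 ± 0.17 (adjusted p = 0.395). The position of a probe set along its gene is not used here.

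No proteasome gene was called between the RBFOX2 knockdown arrays and control, and 0.173% of all genes were. At an unadjusted p under 0.05 there were 4 of 46, against 13.6% of all genes. No proteasome gene had all RBFOX2 knockdown arrays above or all below the control arrays, which held for 7.07% and 7.05% of all genes. The median difference was 0.04 over the proteasome genes, with 29 of 46 above 0 against 56.0% of all genes, and 0.03 over all genes. It was 0.04 in the 20S core, 0.06 in the 19S cap and 0.04 among the chaperones. Without control replicate 3, PSMD1 and PSME3 were called higher and PSMC6 lower (6.52%, against 9.23% of all genes).

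The highest and lowest differences of each class in the RBFOX2 knockdown arrays were these, none of them called. In the alpha ring they were PSMA1 at 0.27 ± 0.16 and PSMA7 at -0.20 ± 0.13, and in the beta ring PSMB6 at 0.23 ± 0.12 and PSMB4 at -0.35 ± 0.15. Among the inducible subunits PSMB10 was at 0.04 ± 0.16 and PSMB9 at -0.24 ± 0.15. The ATPases held the widest range, with PSMC4 at 0.28 ± 0.14 and PSMC6 at -0.52 ± 0.22 (adjusted p = 0.300). PSMC6 had levels of 8.41, 9.17 and 9.37 on the RBFOX2 knockdown arrays against 9.79, 9.62 and 9.12 on the control arrays, so RBFOX2 knockdown replicate 1 was low and control replicate 3 was below 2 of the RBFOX2 knockdown arrays. Among the non-ATPase subunits PSMD1 was at 0.45 ± 0.18 (adjusted p = 0.273) and PSMD6 at -0.25 ± 0.24. PSMD6, a lid subunit, had levels of 9.41, 8.81 and 8.78 on the RBFOX2 knockdown arrays and 9.38, 9.32 and 9.06 on the control arrays, with replicate 1 of the RBFOX2 knockdown arrays apart from the other two. Among the chaperones PSMG3 was at 0.13 ± 0.12, PSMG4 at -0.15 ± 0.12, PSMD5 at 0.04 ± 0.13 and PSMD9 at -0.09 ± 0.11. PSME3 was highest among the activators at 0.54 ± 0.19 (adjusted p = 0.224), and PSME2 lowest at 0.03 ± 0.15.

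No proteasome probe set was called in the RBFOX2 knockdown arrays, against 0.000433% of all kept probe sets, with or without a gene symbol. The smallest p was that of ps2358841 of PSMD4, at 8.17, 7.75 and 7.72 on the RBFOX2 knockdown arrays and 6.65, 7.25 and 7.00 on the control arrays, a difference of 0.91 ± 0.20 (adjusted p = 0.239). The groups did not overlap, while the level of PSMD4 differed by 0.01 ± 0.16. No proteasome exon signal was called either. The smallest p was that of ps2358923 of PSMB4, at 0.76 ± 0.14 (adjusted p = 0.336), and in the arrays labelled CPSF3 knockdown the same exon signal differed by 0.84 ± 0.14 (adjusted p = 0.0574). Both comparisons use the same control arrays, so their values are not independent.

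The differences of the 7 called genes from those shared control arrays are given side by side. Because the genes were chosen by the first value of each pair and the control arrays are shared, neither the smaller size nor the sign of the second value is a result. PSMD1 was at 0.97 in the arrays labelled CPSF3 knockdown and 0.45 in the RBFOX2 knockdown arrays, PSMD12 at 0.93 and 0.34, PSME3 at 0.86 and 0.54, PSMC2 at 0.72 and 0.27, PSMD11 at 0.60 and 0.19, PSMC4 at 0.50 and 0.28, and PSMB9 at -0.66 and -0.24. The arrays labelled CPSF3 knockdown were then compared directly with the RBFOX2 knockdown arrays. No proteasome gene was called, and 0.400% of all genes were. At an unadjusted p under 0.05 there were 10 of 46, against 13.3% of all genes. The differences of the 7 genes were 0.59 ± 0.21 for PSMD12 (adjusted p = 0.237), 0.51 ± 0.18 for PSMD1 (0.231), 0.45 ± 0.14 for PSMC2 (0.192), 0.41 ± 0.14 for PSMD11 (0.219), 0.32 ± 0.19 for PSME3 (0.4995), 0.22 ± 0.14 for PSMC4 (0.560) and -0.42 ± 0.15 for PSMB9 (0.260). The 7 genes were chosen by the difference of the arrays labelled CPSF3 knockdown from control. The same arrays enter this comparison, so these differences may be too large and their direction is no separate support. The 95% interval for PSMD1 ran from 0.13 to 0.90, without allowance for that choice. A failure to pass the adjusted threshold does not show that the hairpins acted alike on a gene. In 6 genes (PSMA6, PSMC2, PSMD1, PSMD3, PSMD11 and PSMD14) all arrays labelled CPSF3 knockdown were above all RBFOX2 knockdown arrays, against 10.9% of all genes, and in PSMB9 and PSME1 all were below, against 9.41%. Without RBFOX2 knockdown replicate 3, PSMD12 was called.

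Genes that work with the proteasome but fall outside the naming rule were read from the same fit. Of 20 associated factors with a level, 3 were higher in the arrays labelled CPSF3 knockdown, none lower, against 10.0% and 4.38% of all genes, and the median difference was 0.16. UBE3C, a ubiquitin ligase that extends chains at the proteasome, was at 10.12, 9.85 and 9.92 on those arrays against 9.36, 9.30 and 9.66 in control (0.52 ± 0.13, adjusted p = 0.0201). ADRM1, a ubiquitin receptor of the cap, was at 10.76, 10.63 and 10.60 against 10.30, 10.07 and 10.33 in control (0.43 ± 0.12, adjusted p = 0.0360). NPLOC4, which with p97 delivers ubiquitinated proteins, was at 10.76, 10.85 and 10.91 against 10.42, 10.40 and 10.44 in control (0.42 ± 0.10, adjusted p = 0.0165). For all 3 genes the arrays labelled CPSF3 knockdown did not overlap the control arrays. Without control replicate 1 or control replicate 2 none of the 3 was called, with adjusted p from 0.0539 to 0.141. Among the arrays labelled CPSF3 knockdown, leaving out replicate 1 ended the call of UBE3C (0.0910), leaving out replicate 2 or 3 that of NPLOC4 (0.0555 and 0.0611), and leaving out any of the 3 that of ADRM1 (0.0648 to 0.128). NPLOC4 was also not called when dim probe sets were kept (0.28, adjusted p = 0.143), nor ADRM1 with the upper-quartile filter (0.33, adjusted p = 0.0940).

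Of 8 regulators of proteasome gene transcription, 1 was called, against 14.4% of all genes. KEAP1, which marks the transcription factor NFE2L2 for destruction, was at 9.62, 9.41 and 9.19 on the arrays labelled CPSF3 knockdown, 9.22, 9.03 and 9.26 under RBFOX2 knockdown, and 8.74, 8.51 and 8.96 on the control arrays. The difference was 0.67 ± 0.14 (adjusted p = 0.00866), and the arrays labelled CPSF3 knockdown were all above control. The median difference of the list was 0.10, with 5 of 8 above 0. NFE2L1 was not called and lay below control, at -0.30 ± 0.14 (adjusted p = 0.183). Its levels were 10.31, 10.45 and 10.07 on the arrays labelled CPSF3 knockdown against 10.62, 10.53 and 10.60 in control, without overlap. What these values mean for the proteasome genes was not tested.

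Of 13 genes of interferon signalling and antigen presentation with a level, 3 were lower in the arrays labelled CPSF3 knockdown and none higher, against 4.38% and 10.0% of all genes, with a median difference of -0.12. B2M, the light chain of class I molecules, was at 8.47, 8.91 and 8.94 on those arrays, 8.60, 8.97 and 9.18 on the RBFOX2 knockdown arrays, and 10.01, 9.77 and 9.01 on the control arrays (-0.82 ± 0.23 in the arrays labelled CPSF3 knockdown, adjusted p = 0.0277). Control replicate 3 was close to the arrays of both targeted hairpins. HLA-E, a non-classical class I gene, was at 9.16, 9.27 and 9.12 on the arrays labelled CPSF3 knockdown against 10.07, 9.93 and 9.58 in control (-0.68 ± 0.13, adjusted p = 0.00603). TAP1, a peptide transporter subunit whose gene lies next to PSMB9 in RefSeq, was at 8.86, 9.04 and 8.75 against 9.45, 9.17 and 9.30 in control (-0.43 ± 0.13, adjusted p = 0.0404). Among these, B2M lost its call without control replicate 1 (adjusted p = 0.123), control replicate 2 (0.0902), or replicate 1 (0.129) or 2 (0.0520) of the arrays labelled CPSF3 knockdown. TAP1 lost it without control replicate 1 (0.157) or 2 (0.0501), replicate 1 (0.115) or 3 (0.141) of the arrays labelled CPSF3 knockdown, or RBFOX2 knockdown replicate 3 (0.0519), when dim probe sets were kept (0.0587), or in a fit of only the compared groups (0.0520). No gene of these lists was called in the RBFOX2 knockdown arrays.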

How the data were processed

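Total RNA of 9 samples was hybridised to exon arrays. The authors deposited a log2 signal per probe set. Per the submitters' processing notes it was made with RMA in Affymetrix Power Tools on hg18 (versions: not given in the sources used here), while the series description also lists the Exon Array Computational Tool. RMA subtracts background and gives every array 1 common distribution, which hides any change that most transcripts share.

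Analyses used R 4.3.3 with limma 3.58.1 and the data.table package (version 1.17.8), and figures Python 3.11.15 with matplotlib 3.10.9. Probe sets with a mean over the 9 arrays at or above the median of all (6.97) were kept, 692116 of 1384231. The level of a gene is the median of its kept probe sets, of which at least 3 were required. Exon signal is the probe set value minus that level, in genes with at least 5 kept probe sets, without 338 probe sets equal to the gene level on every array. Gene levels, probe sets and exon signals were each fitted with limma (lmFit, eBayes) in 1 model of 3 groups of 3 arrays, 2-sided, adjusted by Benjamini-Hochberg at 0.05 over all features. The number of arrays limits the precision, and an exact permutation test of 3 against 3 cannot go below p = 0.1. The fits were tested on simulated data.

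Members and gene lists were chosen with earlier results of these data known. Named are called members and the highest and lowest of each class in each comparison with control. Also named are called genes of the other lists, and the probe sets and exon signals with the smallest p. PSMB8, NFE2L1, the members of counts of 6 or fewer, the level of PSMF1 and the ranges of PSMA2 and PSMD6 were chosen after their values were seen. Platform symbols were matched to RefSeq (GRCh38.p14), 16426 of 19497 as current and 2950 through a synonym; promoters come from RefSeq. Alternatives were the mean as gene level, array weights, a robust variance trend, fits of only the compared groups, a replicate block, the omission of each array, centring, quantile normalisation, an upper-quartile filter and no filter.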

Additional observations from a re-analysis of the deposited data

How the results depend on the processing

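Between the arrays labelled CPSF3 knockdown and control, PSMC2, PSMD1, PSMD12 and PSME3 were called under all 18 other settings, PSMD11 under 17, PSMB9 under 15 and PSMC4 under 13, and none of the 7 changed sign. The 7 called proteasome genes became 11 of 43 with the filter at the upper quartile (25.6%, against 17.6% of all genes). They became 18 with array weights (39.1%, against 28.8%) and 15 with the mean as gene level (32.6%, against 21.1%). When 1 array was left out they ranged from 4 (8.7%, against 5.76%) to 11 (23.9%, against 20.5%). Quantile normalisation and centring called the same 7. The count over all genes (2409) was 4817 with array weights and 965 to 3429 without 1 array. The 35 called proteasome probe sets became 0 without a filter, 75 at the upper quartile, 96 with array weights and 81 with a variance trend, and ranged from 0 to 89 without 1 array. The 0 called exon signals became 5 at the upper quartile, 1 with only the compared groups, 11 with array weights, 3 with a variance trend and 6 with the mean as gene level, and ranged from 0 to 26 without 1 array. Shares over all probe sets or exon signals are not given for these settings. The probe set and exon counts, here and below, are therefore not set against a background.

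In the RBFOX2 knockdown arrays the 0 called proteasome genes became 3 with array weights (6.52%, against 9.03% of all genes). Without 1 array they ranged from 0 to 3 (6.52%, against 9.23%, for the 3), probe sets from 0 to 31 and exon signals from 0 to 3. The count over all genes (29) was 7 without a filter, 5 with only the compared groups, 1513 with array weights and 44 with the mean as gene level, and 2 to 1546 without 1 array, the last without control replicate 3. Between the targeted hairpins, array weights called 2 proteasome genes (4.35%, against 3.59% of all genes). Leaving out 1 array called 0 to 1 (2.17%, against 0.424%, for the 1). The count over all genes (67) was 18 without a filter, 149 with only the compared groups, 601 with array weights, 140 with the mean as gene level and 14 to 145 without 1 array.

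The median difference of the 20S core in the arrays labelled CPSF3 knockdown (0.21) was 0.028 without a filter and 0.12 with the mean as gene level, and ranged from 0.14 to 0.30 without 1 array; in the RBFOX2 knockdown arrays it was -0.050 with array weights. For the chaperones the medians were 0.075 without a filter and 0.083 with the mean in the arrays labelled CPSF3 knockdown, and -0.059 without a filter between the targeted hairpins.

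Correlations of deviations ran from -0.14 to 0.33 between same-numbered arrays of different groups and from -0.45 to 0.35 between differently numbered ones. Some same-numbered pairs may share a batch, so whether the replicate numbers pair the arrays was not settled. With the replicate number as a block, 8 proteasome genes (the 7 and PSMA4), 3 proteasome exon signals and 2564 genes in all were called in the arrays labelled CPSF3 knockdown. The 8 were 17.4%, against 15.3% of all genes. The replicate block gave 0 proteasome genes and 137 genes in all in the RBFOX2 knockdown arrays, and 42 genes in all between the targeted hairpins.

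Among the genes named with values, sign changes occurred only in differences that were not called in the main fit. Other members changed sign too. In the arrays labelled CPSF3 knockdown, PSMA2 (0.36 in the main fit) ran from -0.33 to 0.50 over the 18 settings and PSMD6 (0.11) from -0.23 to 0.50, and each was called under 1 setting. In the arrays labelled CPSF3 knockdown, PSMC6 was at 0.22, PSMD4 at 0.060 and PSMG4 at 0.17 with the upper-quartile filter, PSMD5 at 0.20 and PSMD9 at 0.059 without a filter, PSMD9 at 0.016 with array weights, and PSMD4 at 0.071 and PSMD9 at 0.086 with the mean. In the RBFOX2 knockdown arrays, PSMD6 was at 0.17, PSMG4 at 0.089 and PSME2 at -0.055 with the upper-quartile filter, and PSMD5 at -0.041 and PSME2 at -0.12 with array weights. Without 1 array, the values in the arrays labelled CPSF3 knockdown ranged from -0.20 to 0.071 for CPSF3, -0.15 to 0.036 for PSMA7, -0.029 to 0.18 for PSMB10, -0.22 to 0.12 for PSMC6 and -0.060 to 0.053 for PSMD9. Without 1 array, the values in the RBFOX2 knockdown arrays ranged from -0.11 to 0.18 for PSMB10, -0.084 to 0.11 for PSMD5 and -0.10 to 0.18 for PSME2. The causes were not tested.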
